A study of Mus musculus with 10 samples.

Results

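The genes described here are the collagen chain genes, each of which encodes 1 polypeptide chain of a collagen. They were taken as every protein-coding gene whose symbol has the form Col, number, a, number in the GENCODE vM21 annotation, which gave 44 of the 55536 genes counted in mouse bladder RNA. All 10 libraries came from C57BL/6 mice and were labelled bladder tissue: 4 were wild type (WT), 3 lacked Omd and were labelled OMD_knockout (OMD-/-), and 3 lacked Prelp and were labelled PRELP_knockout (PRELP-/-), with the genotype of the last spelled PRLEP-/- in the labels. Per the study's methods both knockouts were constitutive and put a β-galactosidase reporter in place of exons of the target gene, so every cell type lacked the gene. Age was not given in the sources used here, and neither was whether a library held 1 animal or several.

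Collagens are proteins of the extracellular matrix in which 3 chains wind into a triple helix. Fibrillar collagens, above all types I and III, form the tensile fibres of the bladder wall and are made mainly by fibroblasts, type IV forms the sheet-like scaffold of basement membranes, and type VI forms beaded filaments beside cells. Other classes sit on the surface of fibrils, anchor the epithelium to the stroma, form hexagonal lattices or span the cell membrane. Osteomodulin (Omd) and Prelp belong to the small leucine-rich proteoglycans, a family of secreted proteins many of which bind collagen. The comparisons ask how the RNA of each collagen chain differs between bladders with and without one of these proteins.

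The values are read counts, scaled to CPM on library sizes adjusted by TMM, a scaling that sets the bulk of genes level between libraries. Totals ran from 20391437 to 46269079 counts, so 3 counts, the limit below which a gene was read as undetected, corresponded to 0.0648 to 0.147 CPM, which covers counting error only. Prelp was at 215 to 317 CPM in WT and 1.84 to 4.20 CPM in PRELP-/-, so it was low where the labels place its loss, and at 772 to 826 CPM in OMD-/-, above all WT libraries (log2 fold change of 1.59 with SE 0.12 and adjusted p = 1.3e-05). Omd had 0, 1, 8 and 12 counts in WT, 5, 7 and 7 in PRELP-/- and 0 in each OMD-/- library, which runs the way the labels say, though 2 WT libraries were at or near 0 as well. Umbrella cell markers summed to 7317 to 8921 CPM in WT, which places urothelium in the samples, while 10 smooth muscle markers summed to no more than 1393 CPM in any library. The labels describe homogenised bladder tissue and the paper speaks of isolated epithelia with other numbers of animals. PRELP-/- replicate 1 stood apart from all other libraries, with 29299.9 CPM of the translation factor Eef1a1 against 7191 to 11773 elsewhere. Counts of collagen chain and collagen-handling genes called in PRELP-/- are therefore given with and without it. So are the tests of collagen chain genes whose call changed when it was left out. Within WT, replicates 1 and 2 (189 and 163 CPM over 4 Y-linked genes) resembled each other and replicates 3 and 4 (0 and 0.0443 CPM) resembled each other, and OMD-/- and PRELP-/- replicates 2 and 3 were close as well. All 6 knockout libraries also differed from WT in nuclear-retained RNAs such as Neat1, at 13.2 to 26.3 CPM against 342 to 450 in WT. That difference cannot be told apart from genotype.

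Collagen transcripts took up more of the RNA in OMD-/- bladders. The 44 genes together made up 1.17%, 1.10%, 0.967% and 0.971% of all counts in WT replicates 1 to 4 and 1.90%, 2.41% and 2.46% in OMD-/- replicates 1 to 3. In PRELP-/- the shares were 0.897%, 2.12% and 2.10%, so replicates 2 and 3 lay above all WT libraries and replicate 1 lay below them all. Most of this came from 3 genes: Col1a1 and Col1a2, the 2 chains of type I collagen, and Col3a1, the single chain of type III, were the 3 most abundant members in WT. They had WT means of 1979, 2328 and 2009 CPM, against 465 CPM for the next, Col6a1. Per kilobase of the longest coding transcript these 3 genes made up 64.1% to 68.9% of the collagen signal in WT, 73.7% to 74.0% in OMD-/- and 74.0% to 75.0% in PRELP-/-, with no overlap between WT and either knockout. In bulk RNA, more cells of a collagen-making type and more collagen RNA per cell cannot be told apart.

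**Figure D1:**
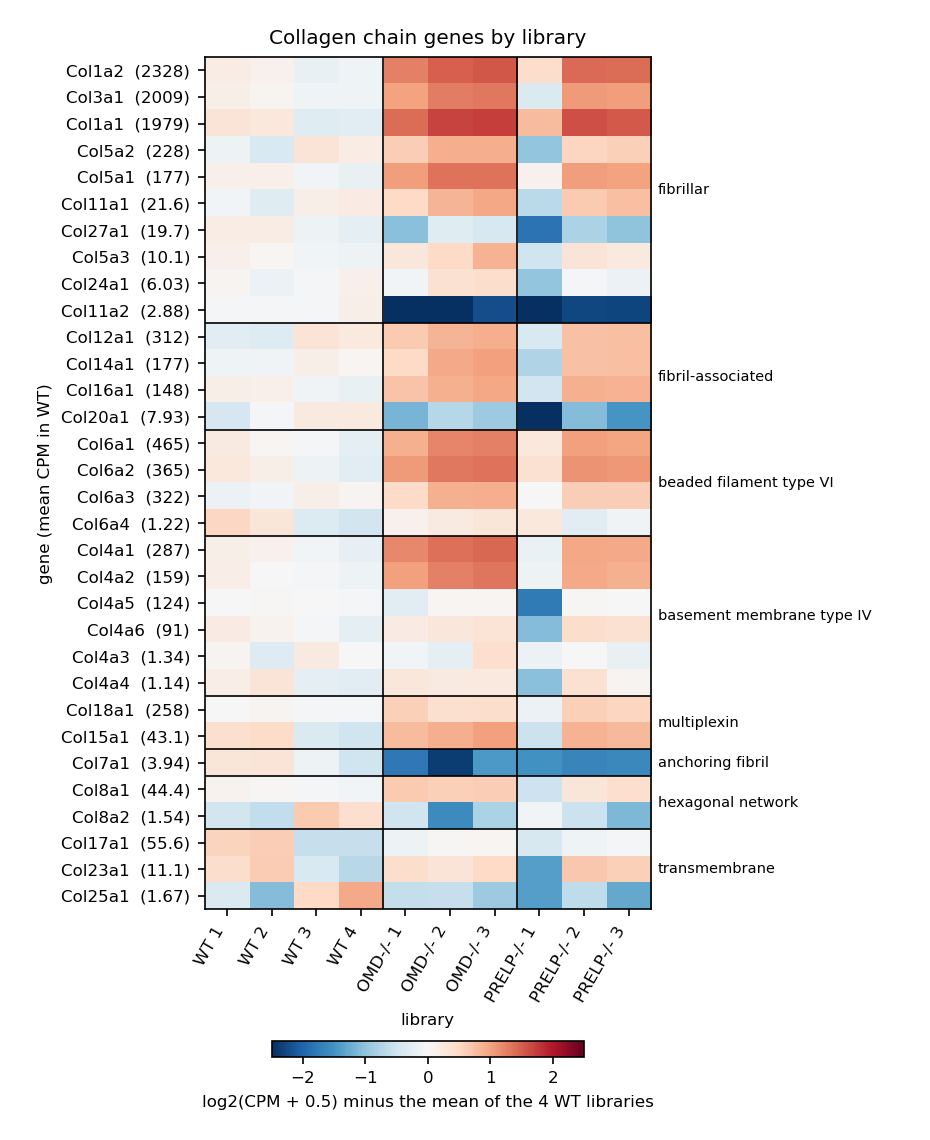
Each row is 1 of the 32 collagen chain genes with a mean of at least 1 CPM in any group (WT mean CPM in parentheses), each column 1 library, and the colour is log2(CPM + 0.5) minus the mean of the 4 WT libraries, with the scale ending at 2.5 either way. Red fills most abundant genes in OMD-/- and in PRELP-/- replicates 2 and 3 but not replicate 1, and Col11a2 and Col7a1 are blue in all 6 knockout libraries.

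Against WT, 35 of the 44 genes had enough counts to be tested in OMD-/-, and 23 of these changed, 18 higher and 5 lower (edgeR's quasi-likelihood test, Benjamini-Hochberg adjusted p under 0.05 over all genes tested). Among all 16647 genes tested, 29.4% changed, 14.3% higher and 15.1% lower. For the collagen chain genes the shares were 65.7% in all, 51.4% higher and 14.3% lower, and their median log2 fold change was 0.59, while the median over all genes was within 0.01 of 0 (-0.00020). By WT level, of the 15 genes at 100 CPM or more in WT 14 rose and none fell, of the 8 genes from 10 to 100 CPM 4 rose and 1 fell, and of the 21 genes below 10 CPM 12 could be tested, none rose and 4 fell. Of those 4, Col11a2 and Col28a1 reached the count filter through WT, with 0 and 1 OMD-/- libraries past it, so they could be tested only because they were higher there. Col7a1 had 2 OMD-/- libraries past the filter and so also drew on WT to reach it.

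In PRELP-/- 35 genes were tested and 6 changed, 2 higher and 4 lower (17.1%, against 7.29% of all 16581 genes, 1.40% higher and 5.89% lower). The 2 that rose were Col1a1 and Col1a2, and those that fell were Col11a2, Col7a1, Col27a1 and Col20a1. Col11a2 had 0 PRELP-/- libraries past the count filter and could be tested only because it was higher in WT. Without PRELP-/- replicate 1 the count was 20, 16 higher and 4 lower, while the share of all genes called rose to 22.2%, and the median log2 fold change went from 0.11 to 0.41. It was 2 without any single WT library, 2 without PRELP-/- replicate 3 and 4 without PRELP-/- replicate 2, with Col7a1 and Col11a2 past the threshold in each of these fits. With the replicate number as a block, 1 gene (Col7a1) stayed past the threshold.

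**Figure D2:**
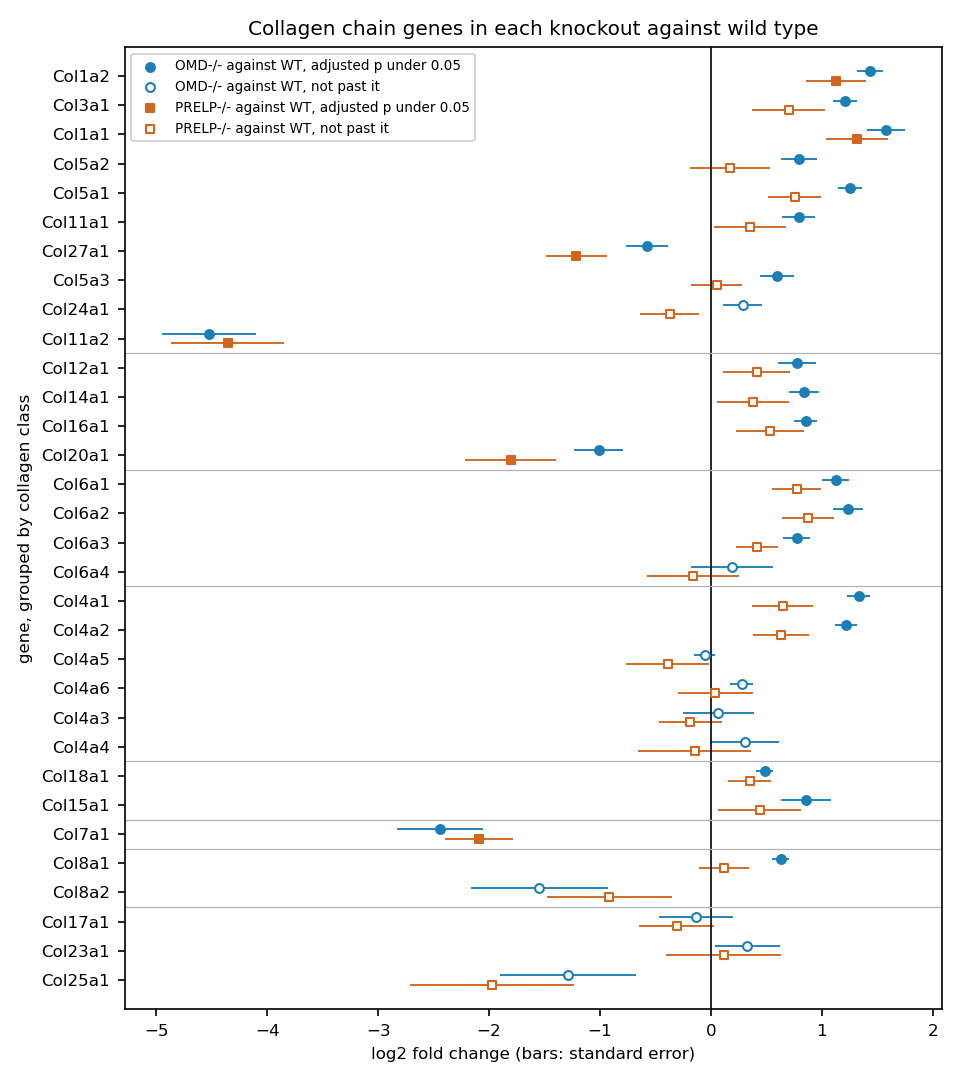
Log2 fold change of each of the 32 genes against WT (horizontal axis, bars show the standard error), circles for OMD-/- and squares for PRELP-/-, filled where the adjusted p was under 0.05, with genes grouped by class. Most OMD-/- circles among the fibrillar, fibril-associated and type VI genes lie right of 0, the PRELP-/- bars are wider, and Col11a2, Col7a1, Col27a1 and Col20a1 lie left of 0 in both.

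Fibrillar collagens included the genes with the largest rises, those of type I. Of 11 genes in this class 10 were tested in OMD-/-, 7 rose and 2 fell. Col1a1 (GRCm38 chr11:94936224-94953042) was at 2429.6, 2322, 1567 and 1599 CPM in WT replicates 1 to 4, 5101, 6226 and 6383 CPM in OMD-/- replicates 1 to 3 and 3345, 5937 and 5648 CPM in PRELP-/- replicates 1 to 3. Every knockout library lay above every WT library, PRELP-/- replicate 1 included (log2 fold change of 1.58 with SE 0.17 and adjusted p = 1.4e-04 in OMD-/- and log2 fold change of 1.31 with SE 0.28 and adjusted p = 0.026 in PRELP-/-). Its partner Col1a2 (chr6:4504814-4541544) was at 2644, 2488, 2023 and 2156 CPM in WT, 5537, 6561 and 6751 CPM in OMD-/- and 3156, 6183 and 6069 CPM in PRELP-/-, again with no overlap (log2 fold change of 1.43 with SE 0.12 and adjusted p = 2.6e-05, and log2 fold change of 1.13 with SE 0.27 and adjusted p = 0.04). Both type I calls in PRELP-/- were lost when any WT library or PRELP-/- replicate 2 or 3 was left out, with an adjusted p of 0.052 to 0.096 for Col1a1 and 0.086 to 0.13 for Col1a2. Col3a1 (chr1:45311538-45349706) was at 2231, 2088, 1852 and 1864 CPM in WT and 4033, 4859 and 5005 CPM in OMD-/-, a clear separation (log2 fold change of 1.21 with SE 0.11 and adjusted p = 4.6e-05). In PRELP-/- it was at 1561, 4182 and 4133 CPM, replicate 1 being below all WT libraries and the others above them, and it did not pass the test (log2 fold change of 0.70 with SE 0.33 and adjusted p = 0.21, and 1.06 with adjusted p = 0.00020 without replicate 1).

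The promoter of Col1a2 is printed because this gene changed in both knockouts. The window runs from 250 bases before to 50 bases after the RefSeq start (chr6:4505368-4505667, plus strand, GRCm38.p6), written 5′ to 3′ on the gene's strand, with capitals marking CCAAT boxes (CCAAT, or ATTGG on the other strand), GC boxes (GGGCGG or CCGCCC) and TATA boxes (TATAAA or TTTATA).
Col1a2: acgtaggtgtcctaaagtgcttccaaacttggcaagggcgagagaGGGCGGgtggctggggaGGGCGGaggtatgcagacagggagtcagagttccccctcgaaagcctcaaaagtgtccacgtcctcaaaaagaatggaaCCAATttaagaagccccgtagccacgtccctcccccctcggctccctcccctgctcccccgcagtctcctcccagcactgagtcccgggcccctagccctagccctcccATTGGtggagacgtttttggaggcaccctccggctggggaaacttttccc
It held 2 CCAAT boxes and 2 GC boxes and no TATAAA. The RefSeq start used for Col1a2 lay 804 bases from the GENCODE start of the gene. Windows were found for 35 of the 44 genes. A GC box was present in 62.9% of them and in 35.7% of all 32851 windows in the table, a CCAAT box in 34.3% against 37.4%, and a TATA box in 14.3% against 13.6%, which describes letters and not binding.

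The minor fibrillar chains, among them those of types V and XI, which join major fibrils and limit their width, differed in direction. In OMD-/- 4 rose, 1 did not pass and 2 fell, Col27a1 and Col11a2, the last described further on. Col5a1, a type V chain, had 156 to 194 CPM in WT and 363 to 452 CPM in OMD-/- (log2 fold change of 1.25 with SE 0.11 and adjusted p = 3.6e-05). In PRELP-/- it was at 189, 364 and 353 CPM and missed the threshold (adjusted p = 0.09), but passed without replicate 1 (log2 fold change 1.03, adjusted p = 0.00040). Col5a2 rose from a WT range of 172 to 279.8 CPM to 341 to 422 CPM in OMD-/- (log2 fold change 0.79), Col11a1 from a WT range of 17.3 to 24.8 CPM to 30.5 to 42.3 CPM (0.79) and Col5a3 from a WT range of 9.22 to 11.0 CPM to 12.4 to 18.9 CPM (0.59). The call for Col5a3 was lost without OMD-/- replicate 3 (adjusted p = 0.090). In PRELP-/- replicates 1 to 3 Col5a2 was at 113, 326 and 339 CPM, Col11a1 at 13.1, 33.9 and 36.1 CPM and Col5a3 at 6.93, 12.8 and 11.9 CPM. None of these passed there (adjusted p = 0.79, 0.52 and 0.91). Without replicate 1 Col11a1 passed (log2 fold change 0.71, adjusted p = 0.011), while Col5a2 (adjusted p = 0.055) and Col5a3 (adjusted p = 0.12) did not. Col24a1 was at 5.37 to 6.65 CPM in WT, 5.70 to 8.32 CPM in OMD-/- and 2.78 to 5.85 CPM in PRELP-/-, and did not pass (adjusted p = 0.25 and 0.40). Col27a1, a short fibrillar chain, fell from 16.5 to 22.4 CPM in WT to 9.29 to 15.7 CPM in OMD-/- and 5.06 to 11.1 CPM in PRELP-/- (log2 fold changes -0.58 and -1.21). All knockout libraries were below all WT libraries for Col27a1, but its OMD-/- call was weak: leaving out WT replicate 1 or 2 or OMD-/- replicate 1 or 3 took the adjusted p to between 0.072 and 0.11. Its PRELP-/- call was lost likewise without any WT library or without PRELP-/- replicate 3 (adjusted p = 0.069 to 0.092).

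**Figure D3:**
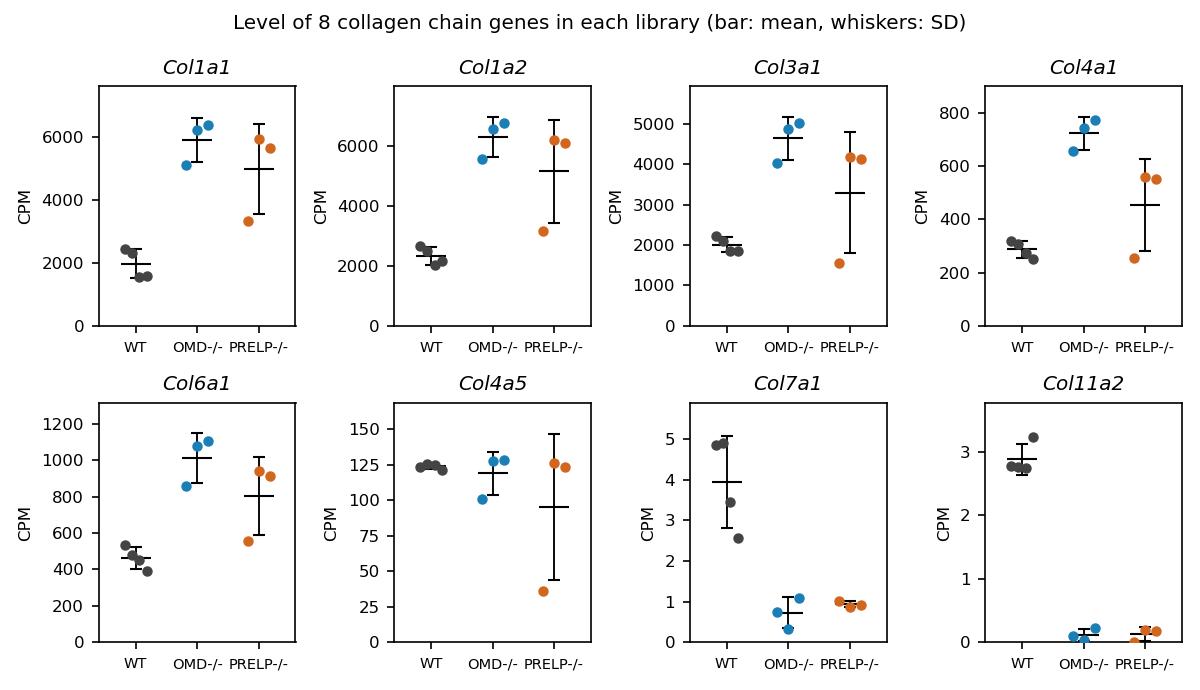
CPM of 8 collagen chain genes in each library (points), with the mean (bar) and SD (whiskers) of 4 WT, 3 OMD-/- and 3 PRELP-/- libraries; each panel has its own axis from 0. Col1a1 and Col1a2 are above WT in all 6 knockout libraries, PRELP-/- replicate 1 is the low orange point for the other abundant genes, Col4a5 is level apart from that point, and Col7a1 and Col11a2 are near the bottom in every knockout library.

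Type IV genes split in OMD-/- between 2 that rose and 4 that did not pass the test. Col4a1 and Col4a2 encode the chains of the type IV network present in nearly all basement membranes, while Col4a5 and Col4a6 encode chains of a network known from the basement membranes of skin, smooth muscle and bladder. Col4a1 was at 317, 308, 274 and 249 CPM in WT and 654, 742 and 771 CPM in OMD-/- (log2 fold change of 1.33 with SE 0.10 and adjusted p = 1.8e-05), and Col4a2 at 178, 159, 153 and 146 and 323, 382 and 402 CPM (log2 fold change of 1.22 with SE 0.10 and adjusted p = 2.6e-05). Neither overlapped between the groups. By contrast Col4a5 was at 123, 126, 125 and 122 CPM in WT and 101, 127 and 128 CPM in OMD-/- (log2 fold change of -0.06 with SE 0.10 and adjusted p = 0.68), the only gene at 100 CPM or more in WT that did not pass. Col4a6 had 76.5 to 105 and 105 to 115 CPM (log2 fold change of 0.28 with SE 0.10 and adjusted p = 0.065), and passed without WT replicate 1. Both Col4a5 and Col4a6 lie on the X chromosome, and for Col4a5 the WT libraries with and without Y-linked RNA spanned only 122 to 126 CPM, while Col4a6 was at 105 and 95.7 CPM in those with Y-linked RNA and 86.8 and 76.5 CPM in those without. Col4a3 and Col4a4, the chains of the glomerular network, were near 1 CPM in WT (means 1.34 and 1.14 CPM) and did not pass. They were at 1.06 to 1.92 and 1.40 to 1.46 CPM in OMD-/-. In PRELP-/- they were at 1.10 to 1.32 and 0.284 to 1.60 CPM, Col4a4 being below every WT library in replicate 1.

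In PRELP-/- none of the 6 type IV genes passed edgeR's test, 2 had an unadjusted p under 0.05, and DESeq2 called 0 and limma-voom 3. Col4a1 was at 254, 559 and 549.6 CPM and Col4a2 at 146, 306 and 295 CPM there, with replicates 2 and 3 above WT and replicate 1 within the WT range. Col4a5 was at 36.0, 126 and 123 CPM, replicate 1 being far below every other library and the other two at the WT level. Without replicate 1, Col4a1 (log2 fold change 0.96, adjusted p = 0.00059), Col4a2 (0.93, 0.00040) and Col4a6 (0.41, 0.035) passed, and Col4a5 did not (0.02, 0.86).

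Col4a1 and Col4a2 lie head to head on chromosome 8, on opposite strands, with starts 21 bases apart, and their windows share 78 bases. They are printed because the pair rose together in OMD-/- (Col4a1 at chr8:11312777-11313076, minus strand and Col4a2 at chr8:11312555-11312854, plus strand, GRCm38.p6, capitals as for Col1a2).
Col4a1: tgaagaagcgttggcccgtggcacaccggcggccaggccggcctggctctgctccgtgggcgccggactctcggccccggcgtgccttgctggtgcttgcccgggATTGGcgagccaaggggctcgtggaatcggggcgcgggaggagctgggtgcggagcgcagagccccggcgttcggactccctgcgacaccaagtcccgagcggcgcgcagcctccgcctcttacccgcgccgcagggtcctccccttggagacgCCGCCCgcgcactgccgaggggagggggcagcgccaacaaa
Col4a2: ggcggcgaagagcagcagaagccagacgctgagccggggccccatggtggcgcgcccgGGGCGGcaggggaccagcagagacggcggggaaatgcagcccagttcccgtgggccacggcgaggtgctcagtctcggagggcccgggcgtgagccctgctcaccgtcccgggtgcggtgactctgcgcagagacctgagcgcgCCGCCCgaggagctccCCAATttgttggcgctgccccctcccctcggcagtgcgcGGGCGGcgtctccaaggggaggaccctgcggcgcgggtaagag
Both windows were rich in G and C (74.0% and 73.7%, against a median of 52.7% over all windows), and both held a CCAAT box and at least 1 GC box. The 2 genes share 22 exonic bases on opposite strands, under 0.4% of either, and the strand setting of the counting was not given in the sources used here.

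Ratios between chains within a library do not depend on the library's size. The Col4a5 to Col4a1 ratio of counts was 0.389, 0.408, 0.456 and 0.488 in WT, 0.155, 0.172 and 0.166 in OMD-/- and 0.142, 0.226 and 0.224 in PRELP-/-. All 6 knockout libraries were below all WT libraries, PRELP-/- replicate 1 included. The Col1a1 to Col3a1 ratio was 1.09, 1.11, 0.846 and 0.858 in WT, 1.26, 1.28 and 1.28 in OMD-/- and 2.14, 1.42 and 1.37 in PRELP-/-, so the ratio of type I to type III was higher in every knockout library than in any WT library. Col5a1 relative to Col1a1 was lower in every knockout library as well, at 0.0797 to 0.107 in WT, 0.0704 to 0.0727 in OMD-/- and 0.0565 to 0.0625 in PRELP-/-. Col4a6 to Col4a5, chains of 1 network, was 0.629 to 0.850 in WT, 0.870 to 1.03 in OMD-/- and 0.959 to 1.17 in PRELP-/-, again with no overlap. Other pairs of chains that join in 1 molecule mostly overlapped with WT: Col4a1 to Col4a2 was 1.71 to 1.94 in WT, 1.92 to 2.02 in OMD-/- and 1.74 to 1.87 in PRELP-/-, and Col1a1 to Col1a2 was 0.742 to 0.933, 0.921 to 0.949 and 0.931 to 1.06 in the same order. Col6a1 to Col6a2 overlapped between WT and OMD-/- (1.19 to 1.38 and 1.14 to 1.20) and was just below WT in PRELP-/- (1.17 to 1.19). With 4 libraries against 3 a two-sided exact permutation test cannot give a p below 0.0571, so these ratios are a description.

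**Figure D4:**
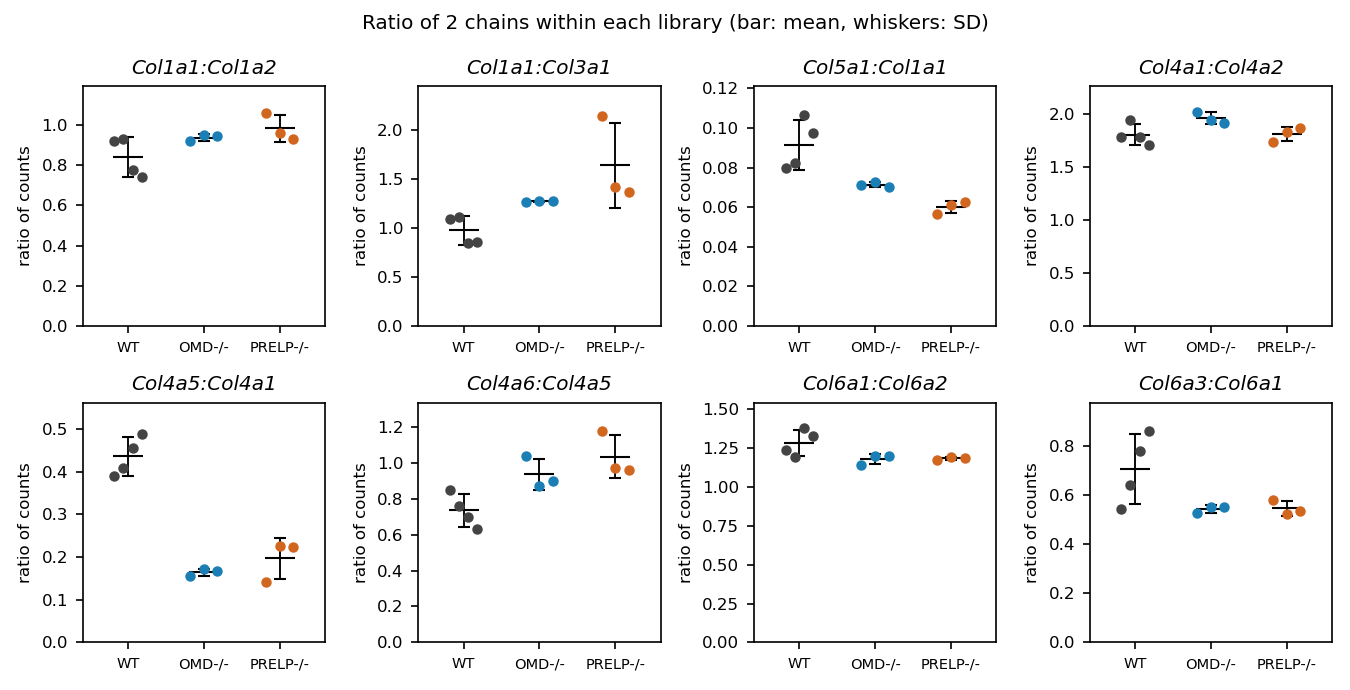
Ratio of the counts of 2 collagen genes within each library (points; bars are the mean and whiskers the SD of 4 WT, 3 OMD-/- and 3 PRELP-/- libraries), each axis starting at 0. Col1a1:Col3a1 and Col4a6:Col4a5 are above and Col5a1:Col1a1 and Col4a5:Col4a1 are below WT in all 6 knockout libraries, Col6a1:Col6a2 is below WT in PRELP-/- only, and Col1a1:Col1a2, Col4a1:Col4a2 and Col6a3:Col6a1 overlap with WT.

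Type VI collagen, whose beaded filaments link cells to the surrounding matrix, rose with the fibrillar genes. Col6a1 was at 537, 478, 453 and 392 CPM in WT, 856, 1075 and 1103 CPM in OMD-/- and 554, 939 and 914 CPM in PRELP-/-, above all WT libraries in each knockout library (log2 fold change of 1.12 with SE 0.12 and adjusted p = 1.5e-04 in OMD-/-). Col6a2 was likewise above WT in all 6 libraries, at 296 to 434 CPM in WT, 750.4 to 921 in OMD-/- and 472 to 788 in PRELP-/- (log2 fold change of 1.23 with SE 0.13 and adjusted p = 1.4e-04 in OMD-/-). In PRELP-/- neither passed edgeR's test, with log2 fold changes of 0.77 and 0.88 and adjusted p = 0.073 and 0.056. Without PRELP-/- replicate 1 both passed (log2 fold changes 1.01 and 1.11, adjusted p = 0.00077 and 0.0015). Of the 6 type VI genes DESeq2 called 2 and limma-voom 3 in PRELP-/-. Col6a3, the largest chain, rose less in OMD-/-, from a WT range of 292 to 354 CPM to 450.5 to 608 CPM (log2 fold change of 0.77 with SE 0.12 and adjusted p = 0.0012). In PRELP-/- Col6a3 was at 322 to 490 CPM and did not pass (log2 fold change 0.41, adjusted p = 0.20). Without PRELP-/- replicate 1 it passed (0.61, adjusted p = 0.0034). Col6a4 stayed near 1 CPM and did not pass, and Col6a5 and Col6a6 had 0 to 6 counts in every library compared.

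Fibril-associated collagens sit on the surface of fibrils and do not form fibrils themselves. Of 9 genes 4 were tested in OMD-/-, 3 rose and 1 fell. Col12a1 went from a WT range of 244 to 386 CPM to 478 to 572 CPM (log2 fold change of 0.78 with SE 0.17 and adjusted p = 0.0074), Col14a1 from a WT range of 163 to 196 CPM to 248 to 358 CPM (log2 fold change 0.84) and Col16a1 from a WT range of 129.9 to 164 CPM to 242 to 289 CPM (0.85). None of their OMD-/- values overlapped WT. In PRELP-/- replicate 1 all 3 were below every WT library (234, 105 and 106 CPM), and in replicates 2 and 3 above every one. None of them passed in PRELP-/- (adjusted p = 0.41, 0.49 and 0.30). Without replicate 1 all 3 passed (log2 fold changes 0.72, 0.75 and 0.89, adjusted p = 0.028, 0.0014 and 0.00097). Col20a1 moved the other way: it was at 5.69, 7.51, 9.17 and 9.35 CPM in WT, 3.21, 4.58 and 3.93 CPM in OMD-/- and 0.852, 3.41 and 2.48 CPM in PRELP-/-, with log2 fold changes of -1.01 (adjusted p = 0.0067) and -1.80 (adjusted p = 0.035). The PRELP-/- call for Col20a1 was lost without any WT library or without PRELP-/- replicate 3, with an adjusted p of 0.054 to 0.10.

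The multiplexins Col15a1 and Col18a1, heparan or chondroitin sulfate-bearing collagens of basement membrane zones, both rose in OMD-/-. Col18a1, the precursor of endostatin, was at 252 to 270.5 CPM in WT and 341 to 391 CPM in OMD-/- (log2 fold change of 0.48 with SE 0.08 and adjusted p = 0.0014). In PRELP-/- replicates 1 to 3 Col18a1 was at 233, 388 and 375 CPM and did not pass (adjusted p = 0.29). Without replicate 1 it passed (log2 fold change 0.57, adjusted p = 0.0013). Col15a1 was at 54.5, 56.7, 32.1 and 29.2 CPM in WT and 72.0, 77.8 and 84.6 CPM in OMD-/- (log2 fold change 0.86, adjusted p = 0.02), so the WT pairs named above also differed from each other. Its call was lost without OMD-/- replicate 2 or 3 (adjusted p = 0.060 and 0.075). In PRELP-/- Col15a1 was at 28.5, 75.7 and 73.1 CPM and did not pass with or without replicate 1 (adjusted p = 0.48 and 0.055). The endothelial marker sum differed between the same WT pairs, at 463, 481, 223 and 209 CPM, and stood at 537 to 628 CPM in OMD-/-. Its part in the Col15a1 result was not tested. Col8a1, a hexagonal network chain of vessels and other tissues, rose in OMD-/- from a WT range of 42.1 to 47.1 CPM to 67.6 to 70.6 CPM (log2 fold change of 0.63 with SE 0.08 and adjusted p = 2.4e-04), and its partner Col8a2 was at 0.743 to 2.48 and 0.127 to 0.848 CPM and did not pass edgeR's test (adjusted p = 0.083), while DESeq2 (adjusted p = 0.044) and limma-voom (adjusted p = 0.017) called it lower. In PRELP-/- Col8a1 was at 30.8, 55.2 and 59.8 CPM and Col8a2 at 1.31, 0.802 and 0.368 CPM. Neither passed edgeR's test there (adjusted p = 0.77 and 0.32). Without replicate 1 Col8a1 passed (log2 fold change 0.38, adjusted p = 0.013) and Col8a2 did not (adjusted p = 0.16).

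Of the 4 transmembrane collagens 0 passed edgeR's test in OMD-/-, 0 had an unadjusted p under 0.05, and DESeq2 and limma-voom called 0. Col17a1, the hemidesmosome collagen of basal epithelial cells, was at 76.0, 78.5, 34.0 and 34.0 CPM in WT, and the OMD-/- range of 47.2 to 53.1 CPM lay between the WT pairs. Col23a1 (6.16 to 16.2 CPM in WT, 12.9 to 14.7 in OMD-/- and 3.64 to 16.8 in PRELP-/-) also varied widely within WT. So did Col25a1 (0.393 to 3.15, 0.503 to 0.763 and 0.227 to 0.721 CPM in the same order). Col13a1 was under 1 CPM in every library. In PRELP-/- Col17a1 was at 38.6 to 50.4 CPM and also lay within the WT range. Of the 4 transmembrane genes edgeR called 0 there, and DESeq2 and limma-voom called 1 each. Col25a1 had an unadjusted p of 0.026 in edgeR's test (log2 fold change -1.97, adjusted p = 0.13), with 1 PRELP-/- library past the count filter.

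A small set of low-abundance genes fell in both knockouts, led by Col11a2 and Col7a1. Col11a2, a fibrillar chain best known from cartilage, had 139, 63, 62 and 73 counts in WT, 2, 1 and 5 in OMD-/- and 0, 5 and 4 in PRELP-/-. That is 2.77, 2.75, 2.75 and 3.23 CPM in WT against 0.0424 to 0.229 CPM in OMD-/- and 0 to 0.200 CPM in PRELP-/-, where several libraries were at or below the limit of 3 counts (log2 fold change of -4.53 with SE 0.42 and adjusted p = 5.3e-05 and log2 fold change of -4.36 with SE 0.51 and adjusted p = 0.0024). Col7a1, the chain of the anchoring fibrils that tie epithelial basement membranes to the stroma, had 243, 112, 78 and 58 counts in WT, 16, 8 and 24 in OMD-/- and 18, 22 and 20 in PRELP-/-. Its level was 4.85, 4.89, 3.46 and 2.57 CPM in WT, 0.754, 0.339 and 1.10 CPM in OMD-/- and 1.02, 0.882 and 0.919 CPM in PRELP-/- (log2 fold change of -2.44 with SE 0.39 and adjusted p = 0.0012 and log2 fold change of -2.09 with SE 0.30 and adjusted p = 0.0057). All knockout libraries lay below all WT libraries for both genes, PRELP-/- replicate 1 among the rest, and both calls stayed past the threshold whichever single library was left out. For Col11a2, though, 0 libraries of either knockout were past the count filter. It was tested only because it was higher in WT, so its test could come out only lower. Col7a1 had 2 OMD-/- and 3 PRELP-/- libraries past the filter. Col28a1, a collagen known from peripheral nerve, had 0.718 to 0.931 CPM in WT and 0.283 to 0.457 CPM in OMD-/- (log2 fold change -1.28, adjusted p = 0.029). That call was lost when WT replicate 3 or 4 or any OMD-/- library was left out (adjusted p = 0.054 to 0.12), and in PRELP-/- Col28a1 did not pass (adjusted p = 0.089). Markers of Schwann cells summed to 7.25 to 12.9 CPM in WT, 6.79 to 10.3 in OMD-/- and 4.66 to 7.49 in PRELP-/-, with none of the 5 below 1 CPM in every library, and their part in the Col28a1 result was not tested.

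The promoters of Col11a2 and Col7a1 are printed because both genes were called lower in each knockout whichever single library was left out (Col11a2 at chr17:34038888-34039187, plus strand, Col7a1 at chr9:108953336-108953635, plus strand, GRCm38.p6, capitals as above).
Col11a2: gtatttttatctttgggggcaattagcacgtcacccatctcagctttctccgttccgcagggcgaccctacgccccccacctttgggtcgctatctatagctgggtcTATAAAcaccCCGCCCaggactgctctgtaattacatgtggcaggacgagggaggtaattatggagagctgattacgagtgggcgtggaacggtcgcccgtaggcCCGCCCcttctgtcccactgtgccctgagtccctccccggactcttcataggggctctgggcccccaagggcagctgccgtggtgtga
Col7a1: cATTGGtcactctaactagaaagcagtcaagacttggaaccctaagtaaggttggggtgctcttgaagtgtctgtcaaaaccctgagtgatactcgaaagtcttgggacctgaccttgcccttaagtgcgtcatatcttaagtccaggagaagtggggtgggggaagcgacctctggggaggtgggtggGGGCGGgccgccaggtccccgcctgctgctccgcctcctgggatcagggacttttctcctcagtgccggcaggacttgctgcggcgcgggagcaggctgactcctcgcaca
The Col11a2 window held 1 TATA box and 2 GC boxes and no CCAAT, and that of Col7a1 held 1 CCAAT box and 1 GC box and no TATAAA. The TATA box of Col11a2 began 143 bases before the RefSeq start, which itself lay 299 bases from the GENCODE start of the gene.

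The other members had too few counts to be tested. In the OMD-/- comparison these were Col2a1, Col6a5, Col6a6, Col9a1, Col9a2, Col9a3, Col10a1, Col19a1 and Col22a1, each with 0 to 20 counts in every library compared, and in PRELP-/- Col13a1 was untested in place of Col9a3. Among them are the cartilage collagens Col2a1, Col9a1 and Col10a1. Col26a1 was tested and did not pass in either knockout. Counting all 44, 12 were under 1 CPM in the mean of every group.

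Genes that act on collagen chains moved with them in OMD-/-. Of 62 genes listed for folding, export, processing, cross-linking, binding or breakdown of collagen 57 were tested, 32 rose and 1 fell (57.9% called, against 29.4% of all genes), with a median log2 fold change of 0.59. In the endoplasmic reticulum 11 of 17 tested folding and hydroxylation genes rose, among them Serpinh1, the collagen chaperone HSP47 (254 to 308 CPM in WT and 693 to 737 CPM in OMD-/-, log2 fold change of 1.33 with SE 0.09 and adjusted p = 5.7e-06). Also higher were the lysyl hydroxylases Plod1 (log2 fold change 1.02) and Plod3 (0.70), the prolyl hydroxylase chains P4ha1 (0.87), P4ha2 (0.87) and P4hb (0.60), P3h1 (0.81), P3h3 (0.59) and Crtap (0.67) of prolyl 3-hydroxylation, and the foldases Fkbp10 (1.01) and Fkbp14 (0.47). Plod2, which makes the telopeptide hydroxylysines of stable cross-links, did not pass (log2 fold change 0.04, adjusted p = 0.91).

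Downstream of folding, the export genes Mia3 (0.26) and Sec24d (0.62) rose in OMD-/-, as did 4 of 7 tested genes of propeptide removal. These were Pcolce, which enhances cleavage of the C-propeptide (79.2 to 97.2 CPM in WT and 178 to 207 CPM in OMD-/-, log2 fold change 1.14), and the N-proteinases Adamts2 (1.02), Adamts3 (1.17) and Adamts14 (0.98), whereas the C-proteinase Bmp1 missed the threshold (adjusted p = 0.064). Of 5 cross-linking oxidases 4 rose, Lox (27.1 to 45.5 CPM in WT and 70.3 to 75.8 CPM in OMD-/-, 1.04), Loxl1 (0.75), Loxl2 (0.68) and Loxl3 (0.59), and Loxl4 did not pass. Of the proteins that bind fibrils, Bgn (1.32), Sparc (1.30), Fn1 (1.04), Tnxb (0.80) and Thbs2 (0.75) rose, while the proteoglycans Dcn (0.33), Lum (0.03) and Fmod (0.95) did not pass. On the side of uptake and breakdown Ddr2 (0.55), Itga11 (1.11), Mrc2 (0.85), Mmp2 (0.97), Mmp9 (0.96) and Mmp14 (0.78) were higher, and Itga10, the alpha chain of a collagen receptor known from cartilage, was the 1 gene that fell (-1.09, adjusted p = 0.011). Calls for Adamts3, Adamts14, Itga10, Loxl3 and Mia3 did not survive every omission of 1 library.

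In PRELP-/- 7 of 57 tested handling genes rose and none fell (12.3%, against 7.29% of all genes). They were Serpinh1 (log2 fold change 0.81), Fkbp10 (0.69), P4hb (0.80), Crtap (0.51), Pcolce (0.71), Sparc (0.93) and Bgn (1.15). Without PRELP-/- replicate 1 there were 23, 22 higher and 1 lower, against 22.2% of all genes. None of the 7 calls held in every fit with 1 library left out, where the count ran from 0 to 23. For Serpinh1 the levels were 483, 523 and 516 CPM in PRELP-/- replicates 1 to 3 against 254 to 308 CPM in WT, so replicate 1 was raised with the others.

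PRELP-/- replicate 1 therefore differed from its group gene by gene. Of the 32 genes with a mean of at least 1 CPM in any group, 4 (Col1a1, Col1a2, Col6a1 and Col6a2) were above all WT libraries in it and 20 were below them all. In PRELP-/- replicate 2 the numbers were 22 and 4, in replicate 3 19 and 6, and in the OMD-/- libraries 18 to 22 above and 5 below.

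Between the knockouts no collagen chain gene passed edgeR's test. Of 32 genes tested in PRELP-/- against OMD-/-, 0 passed edgeR's test and 0 had an unadjusted p under 0.05, and DESeq2 called 0 (0.00633% of all 15805 genes passed). Limma-voom with library weights called 3, Col4a1 (log2 fold change -0.44), Col4a2 (-0.36) and Col5a1 (-0.30), all lower in PRELP-/-. The median log2 difference was -0.38, and -0.14 without PRELP-/- replicate 1. For Col1a1 the difference was -0.25 ± 0.29 SE and for Col4a1 -0.67 ± 0.32 SE, so differences of this size could not be told from 0. The comparisons of each knockout with WT share the WT libraries.

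Levels of cell type markers differed beside these results. The fibroblast list of 10 genes, 2 of which (Dcn and Lum) are also in the handling list, summed to 3256, 3079, 3824 and 3809 CPM in WT, 4971, 5461 and 5517 CPM in OMD-/- and 3024, 5397 and 5375 CPM in PRELP-/-, and 5 of its 10 genes rose in OMD-/-, where 14.3% of all genes tested rose. Collagen RNA per fibroblast marker RNA was 3.32, 3.33, 2.31 and 2.30 in WT, 4.07, 4.44 and 4.52 in OMD-/- and 3.64, 4.09 and 4.01 in PRELP-/-, so all 6 knockout libraries lay above WT on this ratio also. Dcn was the largest part of the WT sums, at 1771, 1634, 2440 and 2407 CPM, and did not pass in OMD-/- (log2 fold change 0.33, adjusted p = 0.12). Fbln1, of the same list, was at 506 to 640 CPM in WT, 1310 to 1432.5 in OMD-/- (log2 fold change 1.27) and 680 to 1442 in PRELP-/- (1.02). The ratio therefore depends on which markers are summed. The leukocyte sum was 614 to 680.4 CPM in WT, 849 to 1603 in OMD-/- and 599.9 to 887 in PRELP-/-, with 7 of 9 genes higher in OMD-/-. Smooth muscle markers summed to 356, 338, 1393 and 1227 CPM in WT, 421 to 846 in OMD-/- and 258 to 275 in PRELP-/-. For them edgeR, DESeq2 and limma-voom all called 0 of 10 in OMD-/-, none at an unadjusted p under 0.05. In PRELP-/- edgeR called 0 of the 10, with 8 at an unadjusted p under 0.05, and DESeq2 called 4 and limma-voom 5. The endothelial list had 0 of 8 called by edgeR in OMD-/-, 5 at an unadjusted p under 0.05, and 2 by DESeq2 and 7 by limma-voom. In PRELP-/- the endothelial counts were 0 by edgeR, 1 at an unadjusted p under 0.05, 1 by DESeq2 and 8 by limma-voom. The umbrella cell sum was 9326 to 12687 CPM in OMD-/- and 10661 to 18910 CPM in PRELP-/-, above the WT range given earlier in all 6 libraries. Of its 5 genes 2 were higher in OMD-/- and 1 in PRELP-/-, where 1.40% of all genes tested rose. Pericyte markers summed to 1118 to 1213 CPM in WT, 1288 to 1342 in OMD-/- and 892, 1344 and 1402 in PRELP-/-, with 2 of 6 genes higher in OMD-/-. Of 4 proliferation markers tested 3 were higher in OMD-/-, where the sum was 11.7 to 28.0 CPM against 7.51 to 11.9 in WT and 13.2 to 16.6 in PRELP-/-. No listed marker of fibroblasts, smooth muscle, endothelium or leukocytes was under 1 CPM in every library. The part of these cell types in the collagen results was not tested.

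**Figure D5:**
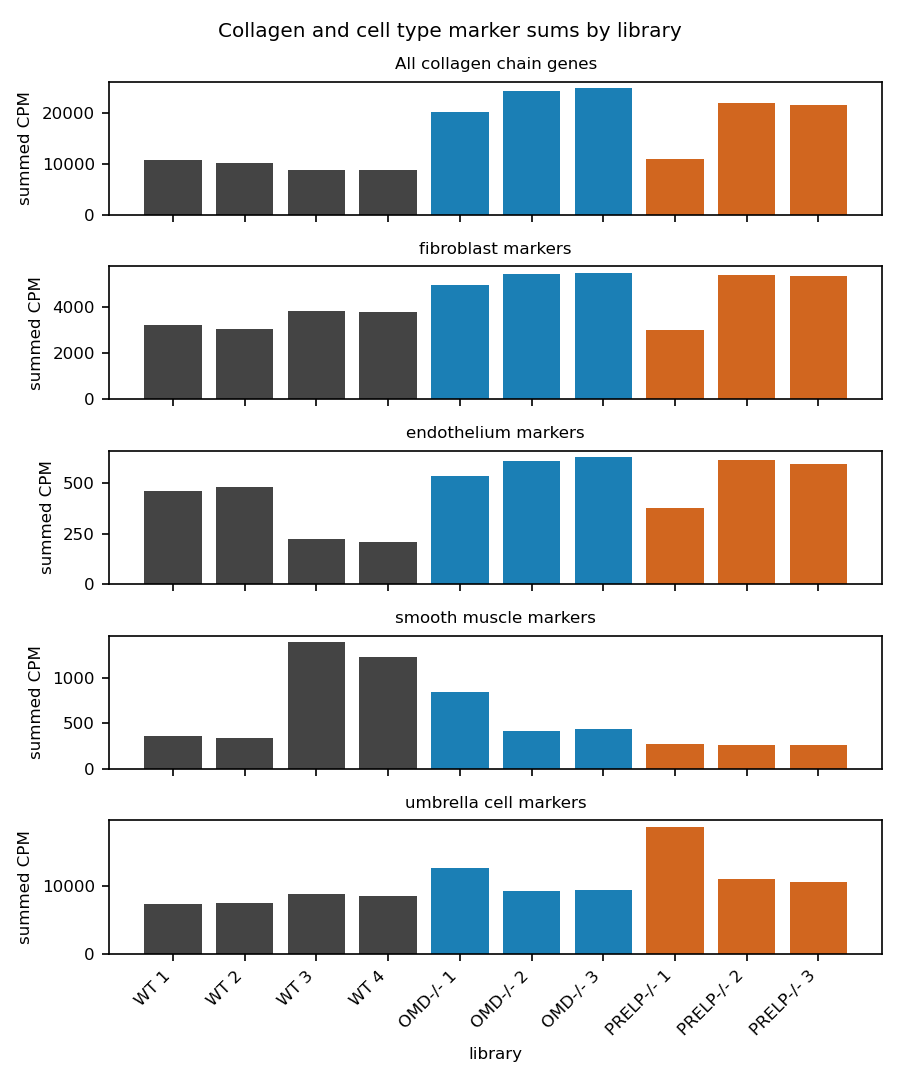
Summed CPM (vertical axes, from 0) of all 44 collagen chain genes and of the marker lists of fibroblasts (10 genes), endothelium (8), smooth muscle (10) and umbrella cells (5) in each of the 10 libraries (grey WT, blue OMD-/-, orange PRELP-/-). Collagen and fibroblast sums are high in OMD-/- and in PRELP-/- replicates 2 and 3, endothelial and smooth muscle sums differ between WT replicates 1 and 2 and WT replicates 3 and 4, and the umbrella cell sum is highest in PRELP-/- replicate 1.

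Y-linked RNA gave a further check within the data. It was at 120, 18.8 and 18.5 CPM in PRELP-/- replicates 1 to 3 and 18.1 CPM in OMD-/- replicate 1, so the groups were not balanced in it. WT replicates 3 and 4 and OMD-/- replicates 2 and 3 had under 1 CPM over the 4 Y-linked genes, and among these libraries 30 collagen chain genes passed, 24 higher and 6 lower in OMD-/-, against 53.7% of all genes. This fit has 2 libraries a group, and in each group they are a close pair, so its spread is that of the close pairs alone. With 1 fit over all 3 groups 12 passed in OMD-/-, Col1a1, Col1a2, Col3a1, Col4a1, Col4a2, Col5a1, Col6a1, Col6a2, Col6a3 and Col8a1 as higher and Col7a1 and Col11a2 as lower. The same 12 also passed in each fit of OMD-/- with 1 library left out, among 19 that did so.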

How the data were processed

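Bladder RNA of 10 mouse libraries was poly(A)-selected and sequenced as strand-specific libraries. The authors deposited, per library, whole-number read counts for 55536 genes, without normalization. Column headers name HISAT2 alignments, while the submitters' processing notes list bcl2fastq, STAR 2.5.2b, featureCounts and DESeq2 with builds GRCm38 and hg38. The strand setting and the use of the molecular identifiers in the adaptors are not given in the sources used here. Tables of the authors' own DESeq2 comparisons were also deposited and were not used.

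All identifiers matched GENCODE vM21 (GRCm38). Each pair of groups was fitted alone with edgeR 4.0.16 in R 4.3.3 (TMM, filterByExpr, robust quasi-likelihood test, two-sided), with Benjamini-Hochberg adjustment over all genes tested and a threshold of 0.05. Alternatives were RLE size factors, no filter, DESeq2 1.42.0, limma 3.58.1 (voom with library weights), 1 fit over 3 groups, a replicate block, a term for Y-linked counts, summed close pairs and leaving out each library. The 2 other Y-linked alternatives were added after the data were seen. The steps were tested on simulated data. The members, gene lists and tests were chosen with earlier results of these data known. Every member is accounted for, with values from 1 or more groups for those with a mean of at least 1 CPM in any group. Of the handling lists, genes that passed are named. Some handling genes that did not pass were named after their values were seen.

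Nothing in the labels says whether libraries came from separate animals, so p-values measure the spread between these libraries. Close pairs (chi-square per degree of freedom 3.10 to 11.6) differed by more than counting noise and were kept as separate libraries. Same-numbered WT and knockout libraries did not deviate together (r from -0.10 to 0.14), so no pairing was assumed there. Between PRELP-/- and OMD-/- the r values were 0.30, 0.18 and 0.15. These cannot show pairing by number, because differently numbered libraries were not correlated and replicates 2 and 3 were close in both groups. The replicate block changed no collagen call in that comparison.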

Additional observations from a re-analysis of the deposited data

Results flagged for a closer look

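In WT, Col11a2 was at 2.77, 2.75, 2.75 and 3.23 CPM, and the gap between replicate 4 and the nearest other library was 0.949 of the group's range, past the 95% critical value of Dixon's test for 4 libraries. It was the 1 gene found among 32 searched, and chance marks about 1 group in 20. The gap is small beside the difference to the knockout libraries, which were at 0 to 0.229 CPM.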

How the results depend on the processing

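The number of collagen chain genes called in OMD-/- (23) was 19 to 24 with 1 library left out and fell to 12 with all 3 groups in 1 fit. In PRELP-/- (6) it was 10 with DESeq2 or with all 3 groups in 1 fit, 26 with limma-voom, 2 with a term for Y-linked counts, 3 with their log2 level as a covariate, 1 with the replicate block, 0 with close pairs summed, and 2 to 20 with 1 library left out. Between the knockouts it was 0, and 3 with limma-voom. For the handling genes in PRELP-/- (7) the counts were 12 with DESeq2 or 1 fit over 3 groups, 37 with limma-voom, 2 with the Y-linked term, 0 with the replicate block, 0 with close pairs summed and 0 to 23 with 1 library left out. The causes were not tested, except that summed pairs leave fewer samples. The replicate block gave 21 collagen genes in OMD-/- and 32 handling genes. WT shares only numbers with the knockouts. No direction of a named collagen call turned. In OMD-/- 356 of the recomputed calls stayed past the threshold and 35 did not, and in PRELP-/- 56 and 40. Genes at 1 to 3 counts, such as Col11a2 in some knockout libraries, are limited by depth.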
